A study of Homo sapiens with 3 samples.

Results

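The 8 genes described here encode proteins of the cell surface that are used or studied as antigens of bladder cancer: EPCAM, NECTIN4, CD276, CD274, MUC1, CEACAM1, CEACAM6 and CD44. They were chosen by name, and each was found as 1 row among the 35851 rows of the table. Poly(A) RNA had been sequenced from the established human bladder cancer cell line 5637, labelled WT in genotype, after lipid transfection of an siRNA. MYBL2, a transcription factor of late cell cycle genes, was targeted in the libraries siMYBL2-1 and siMYBL2-2 (1 library each), and the control siRNA, siNC, had 1 library. The purpose of the series was to find genes downstream of MYBL2. All 3 samples went through the same transfection, and no untransfected sample is used here. Whether the endings -1 and -2 mark separate siRNA sequences or repeats is not given in the labels, nor is the time after transfection or whether the samples came from separate cultures, so that the p-values rest on a spread that may be technical only. The values are RPKM (reads divided by exon length and by the total of assigned reads), and each library had between 40259436 and 46177658 assigned reads.

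These genes belong to several families. EPCAM and the nectins join epithelial cells to each other, CD44 binds hyaluronan in the matrix, and MUC1 and the CEACAMs form part of the glycoprotein coat of the apical surface. CD274 encodes PD-L1, which restrains T cells through the receptor PD-1 and is induced by interferon gamma, and CD276 encodes B7-H3, another member of the B7 family. PD-L1 is blocked by antibodies in urothelial cancer, and nectin-4 is the target of the antibody-drug conjugate enfortumab vedotin.

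MYBL2 itself, the targeted gene, was at 46.0 RPKM in siMYBL2-1 and 56.3 RPKM in siMYBL2-2, against 211 RPKM in siNC. It was thus 4.59-fold and 3.75-fold lower, but with a log2 change of -2.03 and a limma adjusted p of 0.153 it was not called, which shows how large a difference this design can miss. Of 15 listed urothelial and epithelial markers 11 were tested and 0 were called. Of the 11, 4 were higher than siNC in both siMYBL2 libraries (29.7% of all genes tested). Lower in both were 5 (36.4%), and 2 went in opposite directions (33.9%). The keratin genes KRT5, KRT7, KRT8, KRT17, KRT18 and KRT19 had between 16006 and 190141 reads in each library. KRT13, a keratin of stratified epithelia, was at 24.01 and 75.7 RPKM in siMYBL2-1 and siMYBL2-2, against 165 RPKM in siNC (limma adjusted p 0.582). TP63, a factor of basal cells, was at 6.11 and 12.3 RPKM, against 14.5 RPKM in siNC, and the basal keratin KRT14 had between 136 and 245 reads. KRT5, KRT17 and KRT19 were also lower than siNC in both libraries, while KRT7, KRT8, KRT18 and GATA3 were higher in both. KRT18 was at 298 and 172 RPKM in siMYBL2-1 and siMYBL2-2, against 124 RPKM in siNC (limma adjusted p 0.976). GATA3 was at 2.26 and 1.24 times siNC. The uroplakin genes, markers of terminally differentiated urothelium, had 0 reads in every library for UPK1A and UPK1B, between 17 and 39 for UPK2 and between 1 and 15 for UPK3B. Of markers of other cells, PTPRC, CD3E and LYZ (leukocytes) and COL3A1 and LUM (fibroblasts) had between 0 and 5 reads in a library, CD14 between 12 and 16, PDGFRB between 0 and 15 and COL1A2 between 2 and 6. Summed RPKM over the marker list was 5.49 in siMYBL2-1 and 4.22 in siMYBL2-2, against 3.64 in siNC, for 5 leukocyte genes, 2.04 and 1.37, against 1.51, for 5 fibroblast genes, and 0.277 and 0.0988, against 0.0937, for 4 endothelial genes. Nearly all of the leukocyte sum was CD68, of whose exonic bases 14.2% are free of overlap with another row, and nearly all of the fibroblast sum was COL1A1, with 834 and 593 reads, against 567 in siNC. Of the 4 endothelial genes, KDR had 44 reads in siMYBL2-1 and 8 in siMYBL2-2, against 6 in siNC. CDH5 had 16 and 0 reads, against 2 in siNC. PECAM1 had between 10 and 21 reads in a library and VWF between 6 and 7. The part of these levels in the results was not tested. Over the 6353 genes whose mean reached 5 RPKM, the log2 ratio had a standard deviation of 0.483 between the siMYBL2 libraries, and of 0.553 and 0.357 for siMYBL2-1 and siMYBL2-2 against siNC. By this measure siMYBL2-2 lay nearer to siNC than to siMYBL2-1.

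The RNA of 5 antigen genes was plainly expressed and that of 3 was scarce. In order of the mean over libraries, EPCAM led, followed by CD44, CD276, NECTIN4 and CD274, and the mean of these 5 genes reached 1 RPKM, the level needed to enter the test. CEACAM1, CEACAM6 and MUC1 stayed under 1 RPKM in every library and were not tested. EPCAM alone made up 77.7% of the summed RPKM of the 8 genes in siMYBL2-1, 62.1% in siMYBL2-2 and 70.2% in siNC. The sum was 228 RPKM in siMYBL2-1, 116 RPKM in siMYBL2-2 and 146 RPKM in siNC. The order held in all libraries but for neighbours whose 95% counting intervals overlap, namely NECTIN4 and CD276 in siNC and CEACAM6 and MUC1 in each library. Counting intervals are exact Poisson intervals for levels and exact conditional binomial intervals for ratios, and they cover counting error only.

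**Figure D1:**
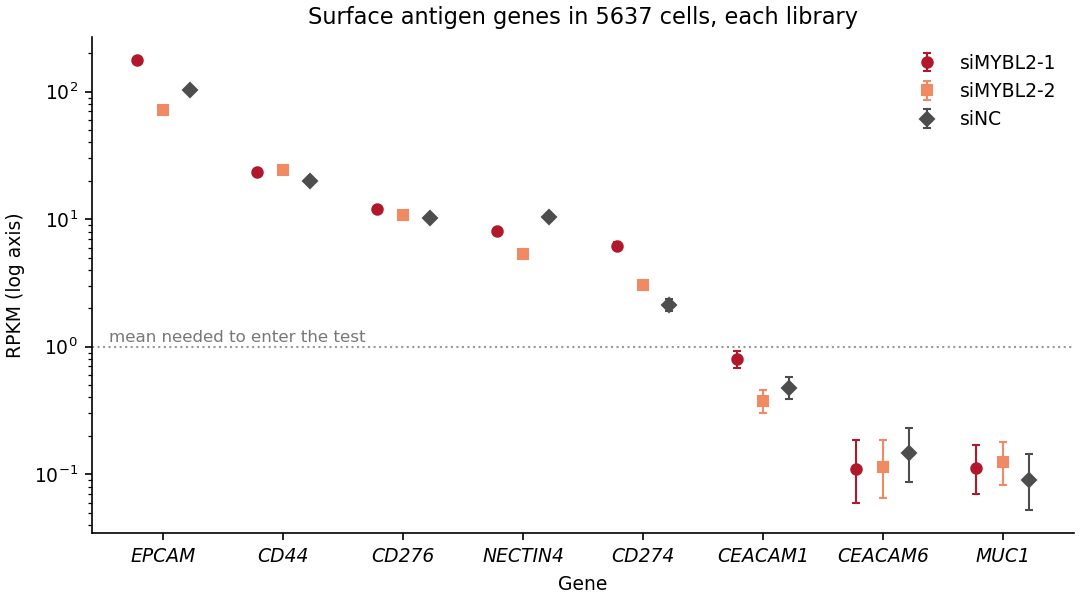
RPKM of the 8 surface antigen genes (log axis) in siMYBL2-1, siMYBL2-2 and siNC, 1 point per library with its 95% counting interval, and a dotted line at 1 RPKM. EPCAM lies between 71.8 and 177 RPKM, while CEACAM6 and MUC1 lie between 0.0895 and 0.146 RPKM with intervals that overlap between all libraries.

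Against siNC, CD274 was higher and NECTIN4 lower in both siMYBL2 libraries, EPCAM was higher in one and lower in the other, and CD44 and CD276 lay close to siNC. None of the 5 tested genes passed limma, each with a Benjamini-Hochberg adjusted p of 0.999 over the 13274 genes tested. The test called 0.00753% of all genes tested higher and 0.00% lower, and 0 of the 5 had an unadjusted p under 0.05, against 4.71% of all genes tested. Of the 5, 3 were higher than siNC in both siMYBL2 libraries (29.7% of all genes tested), 1 was lower in both (36.4%) and 1 went in opposite directions (33.9%). None of the 8 genes was at least 1.5-fold different from siNC in the same direction in both libraries, against 2.64% of all genes tested on the higher side and 4.11% on the lower side. Both ratios share the single siNC library. RNA was measured in bulk, so that fewer cells expressing a gene and less RNA per cell cannot be told apart, and no protein was measured.

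**Figure D2:**
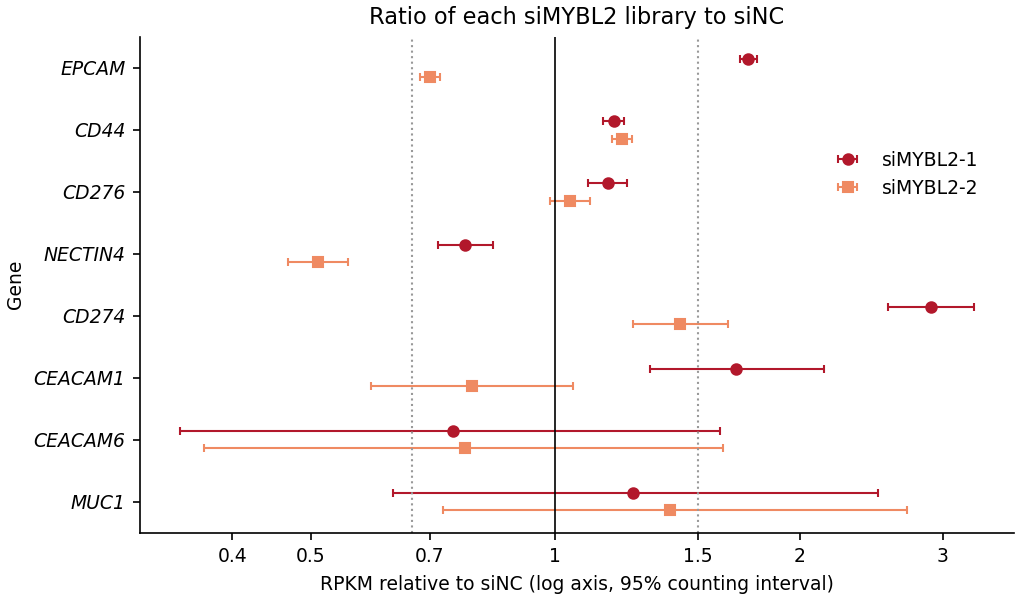
Ratio of RPKM to siNC (log axis) for each gene in siMYBL2-1 and siMYBL2-2, with 95% counting intervals, a line at 1 and dotted lines at 1.5-fold higher and lower. CD274 lies right of 1 in both libraries and NECTIN4 left of 1 in both, while EPCAM lies at 1.73 in siMYBL2-1 and 0.701 in siMYBL2-2.

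CD274, the gene of PD-L1, differed most from siNC among the tested antigen genes. It lies on the plus strand of chromosome 9 (5450503 to 5470566, hg38), and no other row overlaps its exons. CD274 was at 6.21 RPKM in siMYBL2-1 (1066 reads) and at 3.05 RPKM in siMYBL2-2 (579 reads), against 2.14 RPKM (354 reads) in siNC. Both siMYBL2 values lay above siNC, with counting intervals that do not overlap, and siMYBL2-1 lay well above siMYBL2-2. CD274 was 2.90 times siNC (95% counting interval 2.57 to 3.28) in siMYBL2-1 and 1.43 times siNC (1.25 to 1.63) in siMYBL2-2. The mean of 4.63 ± 2.23 RPKM (SD, n = 2) gave a log2(RPKM + 1) change of 0.78 (SE 0.36, 95% interval -0.02 to 1.58), with an unadjusted p of 0.0547 and an adjusted p of 0.999 by limma. A ratio of at least 2 in siMYBL2-1 was reached by CD274 alone of the 5 tested antigen genes and by 4.22% of all genes tested.

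The sequence upstream of CD274 is shown because it was the antigen gene with the largest ratio to siNC, and that of NECTIN4 because it was the one lower in both libraries with counting intervals apart. Each stretch runs from 250 to 51 bases before the gene's start in RefSeq (GRCh38.p14), 5′ to 3′ on the gene's strand, and ends before the first exon of the deposited row. Capitals mark matches on either strand to 5 short motifs: AACNG (the core bound by MYB proteins), TTTGAA (the CHR element of cell cycle genes), GAAANNGAA (bound by interferon regulatory factors), TTCNNNGAA (bound by STAT dimers) and GGAATG (bound by TEAD factors).
CD274, chr9:5450292-5450491, plus strand: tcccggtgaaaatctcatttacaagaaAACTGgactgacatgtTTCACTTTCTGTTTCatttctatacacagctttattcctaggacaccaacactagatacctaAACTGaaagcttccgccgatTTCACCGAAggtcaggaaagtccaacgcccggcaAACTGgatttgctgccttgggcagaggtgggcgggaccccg
NECTIN4, chr1:161089609-161089808, minus strand: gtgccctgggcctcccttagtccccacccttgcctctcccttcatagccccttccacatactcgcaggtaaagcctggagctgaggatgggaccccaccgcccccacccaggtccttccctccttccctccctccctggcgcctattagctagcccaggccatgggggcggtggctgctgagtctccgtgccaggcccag

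The CD274 stretch held 4 matches to AACNG, and 62.9% of 35116 stretches of the same 200 bases held at least 1 and 3.23% at least 4. It held 2 overlapping matches to GAAANNGAA on the opposite strand (at least 1 in 5.55% of all stretches, at least 2 in 0.382%). Both share at least 1 base with a match to AACNG. A single match to TTCNNNGAA (in 5.48% of stretches) lay 125 bases before the start, and TTTGAA (11.3%) and GGAATG (9.71%) were not in the stretch. The NECTIN4 stretch held no match to any of the 5 motifs. CD274 did not stand alone, since the stretch of CEACAM6 held 5 matches to AACNG and 1 to GAAANNGAA. That of CEACAM1 held 1 of each and 1 to GGAATG. Unlike the printed stretches, these 2 overlap the span of the gene's deposited row, as do those of CD276 and CD44. MUC1 held 1 match to AACNG and 1 to GGAATG in each of its 2 stretches. CD276 held 1 match to AACNG in 1 of its 2 stretches, and the stretch of CD44 held none. A match is a run of letters and not a shown site of binding. Of the 8 antigen genes, 7 had an entry in the table of promoters, EPCAM being the other.

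Other genes of the PD-L1 system lay on either side of siNC. Of 17 listed genes of the B7 family, of PD-L1 stability and of interferon signalling, 9 were tested and 0 were called. Of the 9, 1 was higher in both siMYBL2 libraries (29.7% of all genes tested). Lower in both were 3 (36.4%), and 5 went in opposite directions (33.9%). Among the genes too low to test, the B7 family members NCR3LG1, VSIR and ICOSLG, named after their values were seen, lay on either side of siNC. NCR3LG1 was at 2.12 and 1.97 times siNC in siMYBL2-1 and siMYBL2-2 (258 and 264 reads, against 117). VSIR was at 2.44 and 1.39 times siNC (132 and 83 reads, against 52), and its counting interval in siMYBL2-2, 0.972 to 2.01, holds 1. ICOSLG was lower in both, at 0.387 and 0.452 times siNC (111 and 143 reads, against 276). The median of the 9 lay at 0.08 in siMYBL2-1 and at -0.05 in siMYBL2-2 as log2(RPKM + 1) difference to siNC, beside -0.04 and -0.01 over all genes tested. PDCD1LG2, the gene of PD-L2 and a neighbour of CD274 on chromosome 9, had 14 reads in siMYBL2-1 and 10 in siMYBL2-2, against 5 in siNC, too few for a statement on its direction. IRF1, an interferon-induced activator of CD274, was at 8.60 and 5.94 RPKM in siMYBL2-1 and siMYBL2-2, against 8.08 RPKM in siNC. The kinase genes of interferon receptors were at 16.6 and 11.1 RPKM (JAK1) and at 1.40 and 1.65 RPKM (JAK2) in siMYBL2-1 and siMYBL2-2, against 12.5 RPKM (JAK1) and 1.72 RPKM (JAK2) in siNC. IFNGR1, a subunit of the interferon gamma receptor, was at 32.0 and 31.7 RPKM, against 45.1 RPKM in siNC, below it in both. CMTM6, which keeps PD-L1 from degradation, was at 7.76 and 6.72 RPKM, against 7.31 RPKM in siNC.

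Among 4939 protein-coding genes of at least 5 RPKM, the 3 whose differences to siNC lay nearest to those of CD274 were YRDC, MCFD2 and SRM, and 8 genes lay within a distance of 0.1 on the log2(RPKM + 1) scale. YRDC, an enzyme of tRNA modification, was at 13.5 and 7.44 RPKM in siMYBL2-1 and siMYBL2-2, against 5.48 RPKM in siNC. MCFD2, a cofactor of transport out of the endoplasmic reticulum, was at 47.1 and 26.0 RPKM, against 20.4 RPKM in siNC. SRM, spermidine synthase, was at 24.7 and 14.2 RPKM, against 10.4 RPKM in siNC. This likeness rests on 3 libraries and on the log2(RPKM + 1) scale. That scale understates the change of CD274 more than that of these 3 genes, whose levels were higher.

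CD276, the gene of B7-H3, lay close to siNC in both siMYBL2 libraries. Its row, on chromosome 15 (73683966 to 73714518, plus strand), was at 11.9 RPKM in siMYBL2-1 (2765 reads) and at 10.7 RPKM in siMYBL2-2 (2742 reads), against 10.3 RPKM (2294 reads) in siNC. The counting interval of siMYBL2-2 overlaps that of siNC, and siMYBL2-1 lay slightly above both. The ratios were 1.16 (1.10 to 1.23) and 1.04 (0.986 to 1.10), and the log2 change was 0.13 with a 95% interval from -0.51 to 0.76. CD276 was thus 4.80-fold more abundant than CD274 per kilobase in siNC, and CD274 reached 0.520 of the level of CD276 in siMYBL2-1, 0.285 in siMYBL2-2 and 0.208 in siNC.

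NECTIN4 was the tested antigen gene lower in both siMYBL2 libraries. Its row is on chromosome 1 (161070995 to 161089599, minus strand), with no exonic base in another row and no stretch of 50 bases shared with a transcript of another gene in GENCODE 29. NECTIN4 was at 8.06 RPKM in siMYBL2-1 (1180 reads) and at 5.31 RPKM in siMYBL2-2 (859 reads), against 10.4 RPKM (1466 reads) in siNC. The lowest value was that of siMYBL2-2, and the 3 counting intervals do not overlap. The level was 0.775 (0.717 to 0.837) times siNC in siMYBL2-1 and 0.511 (0.469 to 0.556) times siNC in siMYBL2-2, so that the larger difference was in the other library than for CD274. The mean of 6.68 ± 1.94 RPKM (SD, n = 2) gave a log2 change of -0.59 (SE 0.32, 95% interval -1.30 to 0.11) and an unadjusted limma p of 0.0910. NECTIN4 was the only antigen gene at least 1.5-fold lower in siMYBL2-2, as were 8.63% of all genes tested.

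The other nectins and their partners went in several directions. Of 10 listed genes 5 were tested and 0 were called. Of the 5, 1 was higher in both siMYBL2 libraries (29.7% of all genes tested). Lower in both were 2 (36.4%), and 2 went in opposite directions (33.9%). NECTIN1, a relative that binds nectin-4, was at 7.53 RPKM in siMYBL2-1 and 7.58 RPKM in siMYBL2-2, against 12.03 RPKM in siNC, so that it too lay below siNC in both. CADM4, an adhesion protein of a related family, was at 9.11 and 11.7 RPKM, against 14.3 RPKM in siNC. PVR, the poliovirus receptor and a ligand of TIGIT, was at 38.0 and 21.7 RPKM, against 17.8 RPKM in siNC, and NECTIN2 was at 33.9 and 16.4 RPKM, against 17.8 RPKM in siNC. The medians of the 5 genes were 0.44 in siMYBL2-1 and -0.11 in siMYBL2-2 as log2(RPKM + 1) differences to siNC.

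**Figure D3:**
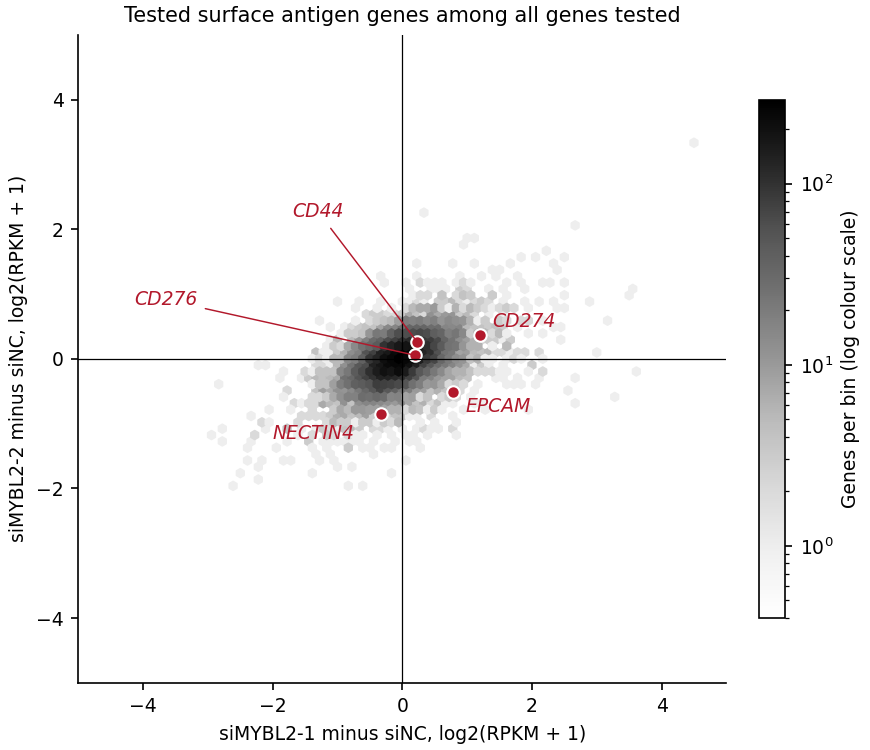
Difference to siNC in siMYBL2-1 (x axis) and siMYBL2-2 (y axis), both in log2(RPKM + 1), for the 13274 genes tested (grey bins, darker for more genes, log colour scale) and the 5 tested antigen genes (red). EPCAM lies below the x axis and right of the y axis at 0.78 and -0.51, CD274 at 1.20 and 0.37, and CD276 and CD44 near the centre.

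EPCAM was the most abundant antigen RNA and the one on which the siMYBL2 libraries were furthest apart. EPCAM, on chromosome 2 (47345158 to 47387601, plus strand), had 177 RPKM in siMYBL2-1 (18653 reads) and 71.8 RPKM in siMYBL2-2 (8356 reads), against 102 RPKM (10386 reads) in siNC. The siNC value lay between the siMYBL2 values, and none of the counting intervals overlap. EPCAM was 1.73 times siNC (1.69 to 1.77) in siMYBL2-1 and 0.701 times siNC (0.681 to 0.722) in siMYBL2-2, and siMYBL2-1 was 2.46 times siMYBL2-2 (2.40 to 2.53). The mean of 124 ± 74.4 RPKM (SD, n = 2) gave a log2 change of 0.14 (SE 0.45), with a 95% interval from -0.87 to 1.15. That change is 0.78 with siMYBL2-1 alone and -0.51 with siMYBL2-2 alone. Among all genes tested 15.6% were higher in siMYBL2-1 and lower in siMYBL2-2, and 3.99% were at least 2-fold higher in siMYBL2-1 than in siMYBL2-2, a rule that 2 of the 5 tested antigen genes met (EPCAM and CD274). At least 1.5-fold apart in either direction were 3 of the 5 (with NECTIN4), against 22.0% of all genes tested.

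Genes tied to EPCAM by binding, cleavage or signalling included several with their highest value in siMYBL2-1. Of 13 listed genes 11 were tested and 0 were called. Of the 11, 3 were higher than siNC in both siMYBL2 libraries (29.7% of all genes tested). Lower in both was 1 (36.4%), and 7 went in opposite directions (33.9%). The median log2(RPKM + 1) difference between siMYBL2-1 and siMYBL2-2 was 0.29, beside -0.02 over all genes tested. A positive median was not particular to this list. It was 0.53 for the nectin list, 0.21 for other carcinoma surface antigens and 0.18 for the PD-L1 list. For the list around CD44 it was -0.21. ST14, the membrane protease matriptase, which cleaves EPCAM, was at 71.9 RPKM in siMYBL2-1 and 35.8 RPKM in siMYBL2-2, against 33.2 RPKM in siNC, and its inhibitor SPINT1 was at 40.1 and 22.1 RPKM, against 23.9 RPKM in siNC. CLDN7, a tight junction protein that binds EPCAM, was at 23.3 and 10.9 RPKM, against 14.2 RPKM in siNC, and thus on both sides of siNC like EPCAM. CDH1, the gene of E-cadherin, taken from the epithelial markers after its values were seen, had the same order, with 36.2 and 8.98 RPKM, against 14.8 RPKM in siNC. Other genes of that marker list, KRT13 and TP63 among them, had their lowest value in siMYBL2-1. BACE1, a protease that also cleaves EPCAM, was at 1.53 and 2.33 RPKM, against 3.23 RPKM in siNC, and 79.6% of its exonic bases are free of overlap with another row, its antisense gene BACE1-AS among them. FHL2, a partner of the cleaved tail of EPCAM, was at 1.17 and 1.23 RPKM, against 0.840 RPKM in siNC.

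**Figure D4:**
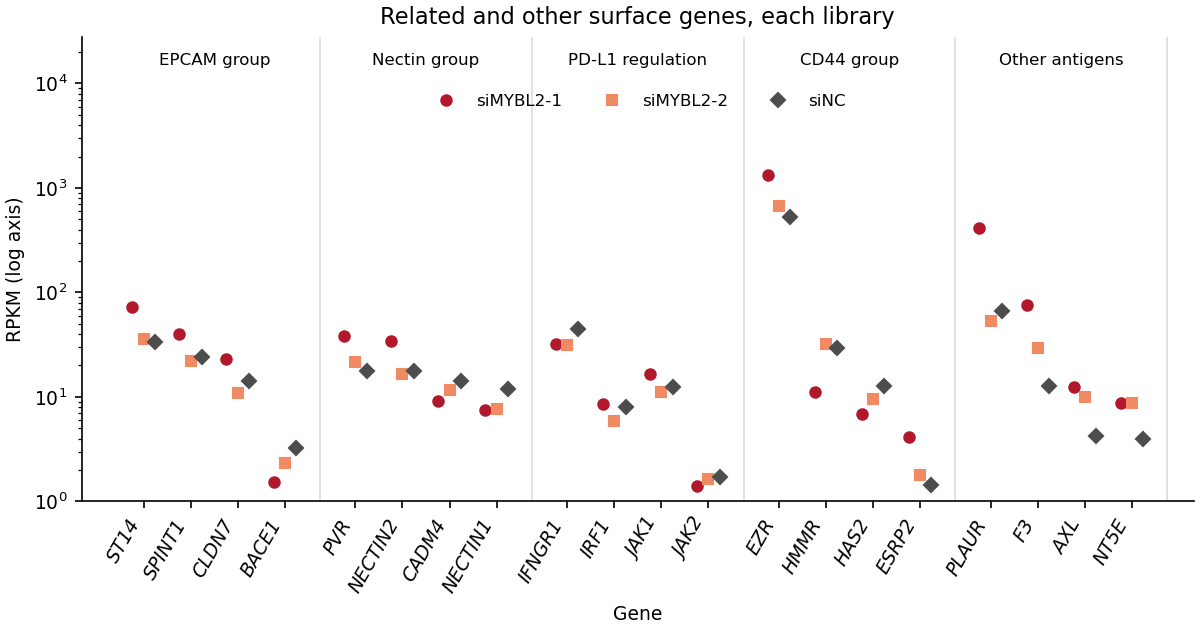
RPKM (log axis) of genes related to EPCAM, the nectins, PD-L1 and CD44 and of other surface antigens in siMYBL2-1, siMYBL2-2 and siNC, 1 point per library. PLAUR stands out in siMYBL2-1, at 417 RPKM, while AXL and NT5E have similar values in both siMYBL2 libraries, above siNC.

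CD44 was the antigen gene on which the siMYBL2 libraries differed least among those tested. CD44, on chromosome 11 (35138870 to 35232402, plus strand, 10057 exonic bases over all isoforms), was at 23.6 RPKM in siMYBL2-1 (9929 reads) and at 24.2 RPKM in siMYBL2-2 (11232 reads), against 20.0 RPKM (8103 reads) in siNC. The siMYBL2 values lay together, above siNC. The ratios were 1.18 (1.15 to 1.21) and 1.21 (1.17 to 1.24), and the ratio of siMYBL2-1 to siMYBL2-2 was 0.976 (0.950 to 1.00). The mean of 23.9 ± 0.408 RPKM (SD, n = 2) gave a log2 change of 0.24 (SE 0.29, 95% interval -0.39 to 0.88). The row sums the standard form of CD44 and its splice variants, which were not told apart here. The ratio of EPCAM to CD44, per kilobase, was 7.50 in siMYBL2-1, 2.97 in siMYBL2-2 and 5.12 in siNC.

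Genes around CD44 had differences to siNC in both directions. Of 14 listed genes that make or degrade hyaluronan, link CD44 to actin, shed it or splice it, 11 were tested and 0 were called. Of the 11, 5 were higher in both siMYBL2 libraries (29.7% of all genes tested). Lower in both were 4 (36.4%), and 2 went in opposite directions (33.9%). EZR (ezrin, which links CD44 to actin) was at 1317 and 677 RPKM in siMYBL2-1 and siMYBL2-2, against 531 RPKM in siNC. HAS2, a hyaluronan synthase, was at 6.85 and 9.56 RPKM, against 12.8 RPKM in siNC. HMMR, another hyaluronan receptor and a mitotic spindle protein, was at 11.2 and 32.1 RPKM, against 29.3 RPKM in siNC. ESRP2, an epithelial splicing factor that acts on CD44, was at 4.14 and 1.79 RPKM, against 1.44 RPKM in siNC, while its relative ESRP1 was at 12.8 and 16.8 RPKM, against 18.4 RPKM in siNC.

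CEACAM1 was scarce and had the same order of libraries as EPCAM. CEACAM1, an adhesion receptor with inhibitory motifs in its long cytoplasmic form (chromosome 19, 42507304 to 42561234, minus strand), was at 0.797 RPKM in siMYBL2-1 (184 reads) and at 0.376 RPKM in siMYBL2-2 (96 reads), against 0.477 RPKM (106 reads) in siNC. The siMYBL2-1 value lay above the others, whose counting intervals overlap. CEACAM1 was 1.67 times siNC (1.31 to 2.14) in siMYBL2-1 and 0.790 times siNC (0.593 to 1.05) in siMYBL2-2. At least 1.5-fold higher in siMYBL2-1 were EPCAM and CD274 among the 5 tested genes, against 11.2% of all genes tested, and CEACAM1 among the 3 that were not tested. Exons of LIPE-AS1 on the opposite strand overlap the row, and 96.7% of its exonic bases are free of such overlap.

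CEACAM6 and MUC1 were near the limit of measurement. CEACAM6, a glycoprotein anchored in the membrane by a lipid (chromosome 19, 41750977 to 41772208, plus strand), had 14 reads (0.110 RPKM) in siMYBL2-1 and 16 reads (0.114 RPKM) in siMYBL2-2, against 18 reads (0.146 RPKM) in siNC. MUC1, a transmembrane mucin with a tandem repeat (chromosome 1, 155185824 to 155192916, minus strand), had 22 reads (0.112 RPKM) in siMYBL2-1 and 27 reads (0.124 RPKM) in siMYBL2-2, against 17 reads (0.0895 RPKM) in siNC. All 3 counting intervals overlap for each gene. The counting interval of the ratio held 1 in both libraries, with 0.345 to 1.59 and 0.370 to 1.61 for CEACAM6 and 0.632 to 2.50 and 0.728 to 2.71 for MUC1, so that a difference of 1.5-fold was not detectable at this depth. Of stretches of 50 bases in the transcripts of CEACAM6 and CEACAM1, 6.99% and 3.29% also occur in transcripts of other genes, among them other CEACAMs, and 88.2% of the exonic bases of MUC1 are free of overlap with another row. The sources used here do not say how reads that match several genes were counted.

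The relatives of these genes were scarce too. Of 10 other listed CEACAM genes 6 had a row and 0 reached a mean of 1 RPKM, with CEACAM5, the carcinoembryonic antigen, at 7 reads in siMYBL2-1, 4 in siMYBL2-2 and 10 in siNC. Of 10 other listed membrane mucins 9 had a row and 1 was tested. That gene, MUC16, which encodes the antigen CA125, was at 1.43 and 1.27 RPKM in siMYBL2-1 and siMYBL2-2, against 1.84 RPKM in siNC, with a log2 change of -0.27.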

How the data were processed

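The authors deposited RPKM values for 35851 rows, per the file headers, with the exon intervals and exonic length of each row. Per the submitters' processing notes, cutadapt 1.9, HISAT2 2.0.4, StringTie 1.3.4d and hg38 were used, with no role given. No source used here names the read counter, its strand setting or the annotation. RPKM times length was a whole multiple of 1 step for 100% of values in each library within 0.001 reads, which gave the reads. At these depths 3 reads on 1 kilobase correspond to 0.0717 RPKM in siMYBL2-1, 0.0650 in siMYBL2-2 and 0.0745 in siNC.

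The test was limma-trend (limma 3.58.1, R 4.3.3) on log2(RPKM + 1) for 13274 rows with a mean of at least 1 RPKM, siMYBL2 (n = 2) against siNC (n = 1), with Benjamini-Hochberg adjustment and a threshold of 0.05. It has 1 residual degree of freedom and assumes that siNC varies like the siMYBL2 pair. Such log2 changes understate the change of low genes. The script was tested on simulated data. Ratios are of plain RPKM. Gene types are from GENCODE 29 and promoters from RefSeq. Pseudocount, filter, scaling, moderation, limma-voom, gene type and left-out libraries were varied. All antigen genes were named. Of each list the text names up to 4 tested genes with the largest mean change, and others that a result on an antigen gene refers to. CLDN7, CDH1, CMTM6, PDCD1LG2, NCR3LG1, VSIR, ICOSLG, ESRP1, CEACAM5, ERBB2, MET, KRT18 and GATA3 were named after their values were seen. CEACAM4, CEACAM7, CEACAM18, CEACAM21, MUC22 and TSPAN8 were not analysed here. Results on some other genes are not reported here. The members and lists were chosen with earlier results of these data known.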

Additional observations from a re-analysis of the deposited data

How the results depend on the processing

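Of the 9 settings that keep all libraries, CD274 was tested in all but that with a mean of 5 RPKM, and MUC1, CEACAM1 and CEACAM6 were tested only when low genes were kept. No antigen gene was called where it was tested, with adjusted p-values between 0.782 and 1.00, and none of the values computed there changed sign. The number of genes called over the whole table was 1 as reported, 0 when low genes were kept, when a mean of 5 RPKM was required, with median-of-ratios scaling, with upper-quartile scaling and with robust moderation, and 10 (3 higher, 7 lower) by limma-voom on the recovered reads. The cause of these differences was not tested. With all libraries kept, CD274 ranged from 0.78 to 1.02 and NECTIN4 from -0.67 to -0.59 in log2 change. The number of antigen genes at least 1.5-fold different from siNC in the same direction was 0 with both siMYBL2 libraries and ranged from 1 to 3 with either left out, a comparison of 1 library with 1 that allows no test. Without siMYBL2-1 the log2 change of EPCAM was reversed, at -0.51. That of CEACAM1 went from 0.09 to -0.10, but the counting interval of its ratio in siMYBL2-2 holds 1. The log2 change without siMYBL2-1 was 0.37 for CD274, -0.85 for NECTIN4 and 0.05 for CD276. Without siMYBL2-2 it was 0.78 for EPCAM, 0.28 for CEACAM1, 1.20 for CD274, -0.33 for NECTIN4 and 0.20 for CD276. CEACAM6 and MUC1 are limited by depth, and their log2 changes grew with a smaller pseudocount, to -0.22 and 0.20 at 0.1, since the addition outweighs their level. No paired analysis was possible because siNC has 1 library and its label carries no number.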

Other observations

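Other surface antigens of carcinoma include genes further from siNC than most of the 8 described. Of 29 listed genes 24 were tested and 0 were called by limma. Of the 24, 7 were higher in both siMYBL2 libraries (29.7% of all genes tested). Lower in both were 8 (36.4%), and 9 went in opposite directions (33.9%). An unadjusted limma p under 0.05 was reached by 4 (F3, AXL, NT5E and MET) and by 4.71% of all genes tested. F3, the tissue factor gene and target of tisotumab vedotin, was at 76.5 RPKM in siMYBL2-1 and 29.3 RPKM in siMYBL2-2, against 12.7 RPKM in siNC, with a log2 change of 1.82 and a limma adjusted p of 0.509. AXL, a receptor tyrosine kinase, was at 12.3 and 10.1 RPKM, against 4.24 RPKM in siNC (adjusted p 0.450). NT5E, the ectonucleotidase CD73, was at 8.67 and 8.82 RPKM, against 3.98 RPKM in siNC (adjusted p 0.638). PLAUR, the urokinase receptor, was at 417 and 53.3 RPKM, against 67.1 RPKM in siNC, and so went in opposite directions. ERBB2, the gene of HER2, was at 6.01 and 6.59 RPKM, against 7.82 RPKM in siNC.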
